A study of Mus musculus with 2 samples.

Results

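Of 5843 liver barcodes in 2 single-cell libraries, 513 carried at least 3 UMIs (unique molecular identifiers, each standing for 1 captured transcript) summed over Plin2 and G0s2 and are called members here. They were chosen among the 5439 barcodes with at least 200 genes, at most 25% mitochondrial UMIs and 0 UMIs summed over Ptprc, Ptprb and Dcn, which mark immune, endothelial and mesenchymal cells. The library labelled scramble held 16 of them among 2601 such barcodes, and the shBicd2-labelled library held 497 among 2838. The members were thus selected on their raw Plin2 and G0s2 UMIs, so the levels of these genes are given as a description and support nothing else.

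The livers came from wild-type C57BL/6J mice. At an age of 4 weeks they were infected with an adeno-associated virus (AAV), named AAV-scramble in the control group and AAV-shBicd2 in the other. All mice of both groups then received 15 mg/kg Con A intravenously 3 weeks later, and tissue was taken after 6 hours. Con A is concanavalin A, a plant lectin that activates T cells and injures the mouse liver, and Bicd2 encodes an adaptor between cargo and the dynein motor. There was 1 library per group, so p-values and standard errors are not given, every interval is a 95% interval of counting error only, and a difference between the libraries cannot be told apart from a difference between animals or preparations. The cell type that the AAV drives its hairpin in, the number of animals per library and the construct that carries the EGFP feature of the matrices are not given in the sources used here.

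Hepatocytes store neutral lipid in droplets, which are coated by perilipins. Plin2 encodes the perilipin that coats most droplets in hepatocytes, and its protein is stabilised by the droplet. G0s2 encodes an inhibitor of Pnpla2, the lipase that opens triglyceride breakdown. Fatty acids released from droplets are burned in mitochondria and peroxisomes and are ligands of PPARα (gene Ppara), the nuclear receptor that switches on many genes of fatty acid oxidation and also Plin2. Droplets themselves were not measured here.

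The promoters of both genes that chose the members, and of 2 genes that the results turn on, are shown so that a reader can see the sequence in front of them. Each window runs from 250 bases before to 50 bases after a start of the gene in RefSeq, on the build GRCm38.p6, and is printed along the strand of the gene. Capitals mark a match to the DR1 element bound by PPARα with its partner (AGGTCANAGGTCA, at most 2 mismatches) or to a sterol response element (TCACNCCAC, no mismatch). Both strands were searched.
Plin2, chr4:86670010-86670309, minus strand: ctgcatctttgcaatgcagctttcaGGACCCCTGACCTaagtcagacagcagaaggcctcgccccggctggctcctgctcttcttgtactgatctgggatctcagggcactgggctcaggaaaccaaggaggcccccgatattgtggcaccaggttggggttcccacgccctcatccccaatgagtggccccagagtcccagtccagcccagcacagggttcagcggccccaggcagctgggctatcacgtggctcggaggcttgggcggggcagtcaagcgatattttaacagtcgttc
G0s2, chr1:193273139-193273438, minus strand: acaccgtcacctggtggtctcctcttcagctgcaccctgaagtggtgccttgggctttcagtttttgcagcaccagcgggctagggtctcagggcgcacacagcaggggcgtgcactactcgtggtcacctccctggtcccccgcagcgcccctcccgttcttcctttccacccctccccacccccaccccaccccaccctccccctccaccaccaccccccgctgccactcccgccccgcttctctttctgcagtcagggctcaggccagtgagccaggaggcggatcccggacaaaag
Creb3l3, chr10:81092542-81092841, minus strand: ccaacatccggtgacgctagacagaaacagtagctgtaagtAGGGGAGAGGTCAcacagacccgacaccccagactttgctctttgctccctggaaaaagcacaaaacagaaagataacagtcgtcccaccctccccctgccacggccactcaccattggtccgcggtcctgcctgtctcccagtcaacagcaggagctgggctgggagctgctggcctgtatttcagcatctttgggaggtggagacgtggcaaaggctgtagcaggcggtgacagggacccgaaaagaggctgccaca
Hmgcs1, chr13:119690101-119690400, plus strand: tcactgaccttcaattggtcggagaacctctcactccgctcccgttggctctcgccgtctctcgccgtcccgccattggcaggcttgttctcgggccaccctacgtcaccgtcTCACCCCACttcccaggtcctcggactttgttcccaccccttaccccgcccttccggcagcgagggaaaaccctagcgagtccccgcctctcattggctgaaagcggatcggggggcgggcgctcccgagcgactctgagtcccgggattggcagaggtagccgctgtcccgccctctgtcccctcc
The Plin2 match lies 225 bases upstream of the start and reads on the opposite strand, the Creb3l3 match lies 209 bases upstream, and the Hmgcs1 match lies 137 bases upstream. No printed window held both elements, and a window without a match says only that these letters are not in it. Creb3l3 has a second start in the table, whose window (81098823 to 81099122) held neither element and is not printed. That window covers the upstream end of the gene as annotated (81098874), while the printed window with the match lies inside the gene. Among 32851 promoters of this length, 3.86% held the DR1 letters and 1.24% the sterol element. A match is a description of the letters and not a bound site.

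Plin2 (chromosome 4, 86648386 to 86670060, minus strand) supplied most of the UMIs that chose the members. The 16 scramble members held 57 Plin2 UMIs and 0 G0s2 UMIs. The 497 shBicd2 members held 2291 Plin2 UMIs and 234 G0s2 UMIs, and G0s2 (chromosome 1, 193272161 to 193273217, minus strand) was seen in 135 members, each of which also held Plin2. Over all barcodes inside the limits, Plin2 stood at 81.0 CPM (UMIs of a gene per 1000000 UMIs) in the scramble-labelled library and 639 CPM in the shBicd2-labelled library, and G0s2 at 1.26 and 59.0 CPM. Members held 14.5% of the UMIs of both genes in the first library and 68.0% in the second.

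Members made up 0.615% of barcodes inside the limits in the scramble-labelled library (exact binomial interval 0.352 to 0.997%) and 17.5% in the shBicd2-labelled library (16.1 to 19.0%). The share was 28.5 times as high in the second library (17.4 to 50.2). Just inside the threshold, 9 and 169 barcodes held 3 such UMIs, and just outside it 42 and 286 held 2. The highest count was 5 in the scramble-labelled library and 18 in the shBicd2-labelled library, with medians of 3 and 4 among members. With barcodes thinned to 1000 UMIs (670 and 777 were too shallow), 2 of 1931 barcodes (0.104%) and 189 of 2061 (9.17%) still reached 3 UMIs, a ratio of 88.5 (24.2 to 736) that rests on 2 barcodes in its lower group.

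**Figure D1:**
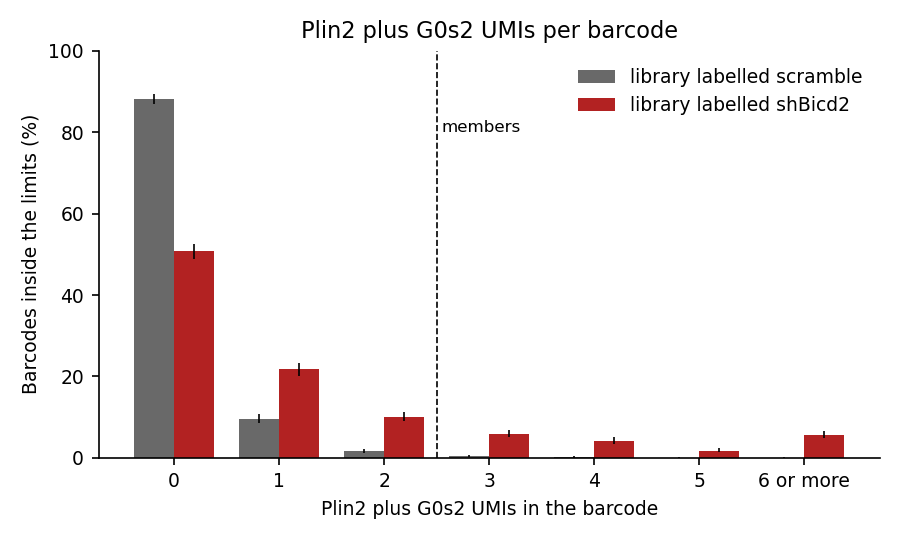
Percent of barcodes inside the limits (vertical axis) by their number of Plin2 plus G0s2 UMIs (horizontal axis), grey for the scramble-labelled library and red for the shBicd2-labelled library; error bars are exact binomial 95% intervals and the dashed line marks the threshold of 3. Barcodes with 0 such UMIs make up 88.1% of the first library and 50.7% of the second, and 6 or more UMIs occur in 5.60% of the second and in none of the first.

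Free RNA gives a droplet UMIs of genes its cell does not express. The same count was made in barcodes set aside for a Ptprc, Ptprb or Dcn UMI. Whether the cells behind them express Plin2 or G0s2, or are hepatocytes, was not tested, so the count cannot measure free RNA. There, 0 of 190 barcodes reached 3 UMIs in the scramble-labelled library, which allows a share of up to 1.58%, and 18 of 176 did in the shBicd2-labelled library (10.2%, 6.17 to 15.7%). Thinned to 1000 UMIs, these were 0 of 102 and 4 of 92 (4.35%, 1.20 to 10.8%). The lineage barcodes were shallower, with median UMI counts of 1068 and 1056.5 outside both genes, against 1537 and 1536 inside the limits. The scramble member share of 0.615% lay below that 1.58%, and the thinned shBicd2 member share of 9.17% lay within 1.20 to 10.8%. How much of either share comes from free RNA was not tested. Any UMI of either gene was seen in 7.35% of thinned barcodes inside the limits and 8.82% of lineage barcodes in the scramble-labelled library, and in 39.4 and 29.3% in the shBicd2-labelled library.

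Members had the RNA of hepatocytes. All 14 hepatocyte markers were detected in both sets of members, with summed levels of 10871 CPM (scramble) and 18435 CPM (shBicd2), and Fgb, a fibrinogen chain, led both at 4642 and 4903 CPM. In the 16 scramble members, every marker of Kupffer cells and monocytes (14), B cells (10), T and NK cells (14) and endothelial cells (12) was at 0. So was every marker of stellate cells and fibroblasts (13), cholangiocytes (10) and mesothelial cells (6). There, 1 UMI was worth 23.7 CPM and 0 UMIs allow up to 3, so sums like the 2.44 to 66.0 CPM given next could go unseen. The pairs of the scramble members were also at 0 for Kupffer cell and monocyte, T and NK cell and mesothelial markers. In the shBicd2 members the sums of these lists ranged from 2.44 CPM for mesothelial to 66.0 CPM for endothelial markers. Kupffer cell and monocyte markers summed to 44.0 CPM, with 3 of 14 at 0 and Cd68 highest at 12.2 CPM. B cell markers summed to 14.7 CPM (4 of 10 at 0) and T and NK cell markers to 13.0 CPM (8 of 14 at 0). Cholangiocyte markers summed to 54.6 CPM, with 4 of 10 at 0 and Sox9 highest at 28.5 CPM, and erythroid markers to 235 CPM. The neutrophil list summed to 2851 CPM, of which 2578 CPM was Lcn2, which injured hepatocytes also express, and Ly6g was at 0. Plin1 and Cidea, which coat droplets in fat cells, were at 0 in members of both libraries.

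Both libraries held similar numbers of barcodes (2805 and 3038) and of UMIs (5086306 and 5624055), and they shared 3 barcodes, of which 1 was a member. Bicd2 stood at 16.3 CPM (83 UMIs) under the label scramble and 19.2 CPM (108 UMIs) under shBicd2, so it was not lower with the hairpin's label, and at 20.7 CPM (26 UMIs) in shBicd2 members. The 3′ reads cannot show whether the protein was lowered, and directions between the libraries rest on their labels. Members were deeper than barcodes with 0 such UMIs, with medians of 2305 against 1272 UMIs in the shBicd2-labelled library, so each member was paired with the 0-UMI barcode nearest in depth within 10%. This paired 16 of 16 and 495 of 497 members, with median depths of 2304 and 2250 in the shBicd2-labelled library. Mitochondrial UMIs were 0.240% of the median member and 0.262% of the median paired barcode, and the median number of genes was 1247 and 1053. EGFP moved with the comparison in the shBicd2-labelled library: 18.6% of paired members and 42.8% of paired 0-UMI barcodes held a UMI of it (92 and 212 of 495). In the scramble-labelled library, 2 of 16 members and 1 of 16 pairs did. Among all 0-UMI barcodes, 5.80% held an EGFP UMI in the scramble-labelled library and 31.3% in the shBicd2-labelled library. The part of EGFP in the results was not tested beyond the values without EGFP barcodes given below.

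Across genes with at least 30 UMIs over both sides, a gene is called higher or lower where the ratio of its CPM passes 1.5-fold. In the shBicd2-labelled library, 3258 of 7745 genes were higher in members (42.1%) and 1019 were lower (13.2%). The median gene stood 0.43 higher on the log2 scale, while the 20 most abundant genes took 18.9% of member UMIs and 24.4% of the UMIs of paired barcodes. After division by that median, 1579 genes (20.4%) were higher and 1800 (23.2%) lower. In the scramble-labelled library, where 1 UMI is worth 23.7 CPM, 378 genes reached 30 UMIs, of which 70 (18.5%) were higher and 74 (19.6%) lower, and the median gene stood at -0.05. Of 360 genes tested in both, 40 were higher in both and 45 lower in both, while 2 and 5 went opposite ways.

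**Figure D2:**
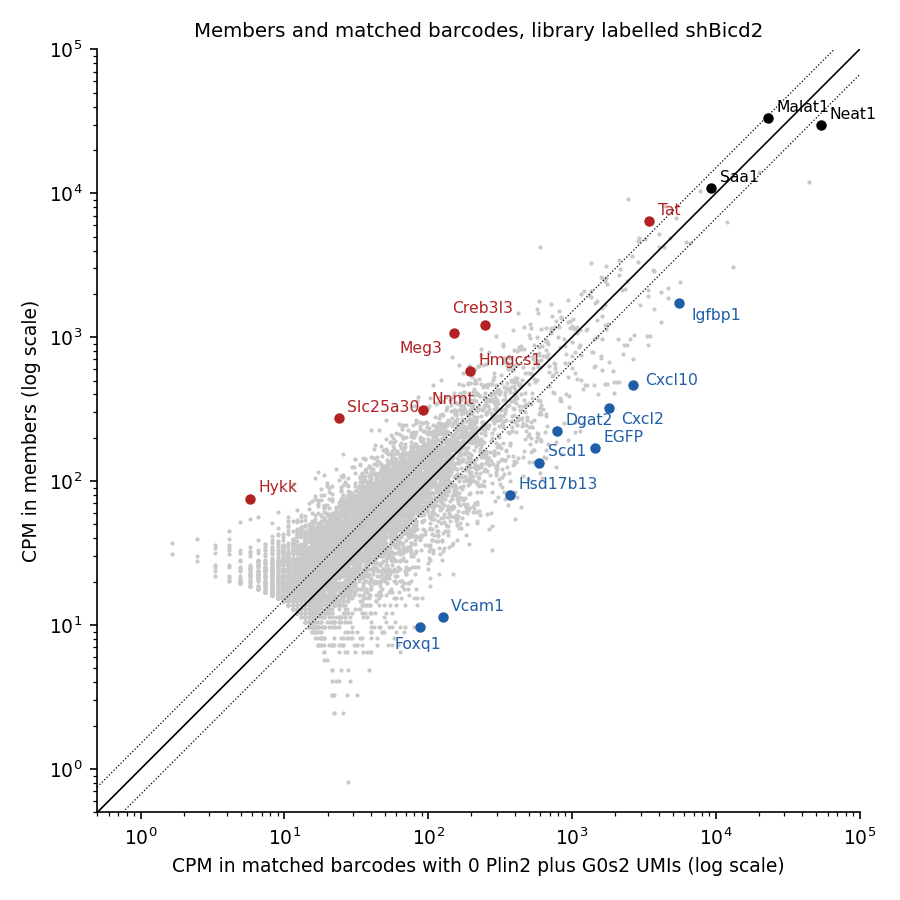
CPM of each gene with at least 30 UMIs over both sides and a UMI on each, in 495 members (vertical axis, log scale) against 495 depth-matched barcodes with 0 Plin2 plus G0s2 UMIs (horizontal axis, log scale), library labelled shBicd2; the solid line is equality and dotted lines are 1.5-fold. Creb3l3 (1214 against 250 CPM) and Slc25a30 (275 against 23.8 CPM) lie far above the line, and Vcam1 (11.4 against 126 CPM) and EGFP (169 against 1438 CPM) far below it.

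Genes of fatty acid oxidation were higher in members. Creb3l3 encodes a hepatocyte transcription factor of the endoplasmic reticulum that acts with PPARα during fasting (chromosome 10, 81084324 to 81098874, minus strand). It stood at 1214 CPM in shBicd2 members and 250 CPM in paired barcodes, a ratio of 4.86 (4.30 to 5.52), and at 23 and 6 UMIs in the scramble-labelled library. Creb3l3 was seen in 419 of 495 members and 174 of 495 paired barcodes. Without EGFP barcodes its shBicd2 ratio was 3.82, and against barcodes with 1 or 2 Plin2 plus G0s2 UMIs it was 2.60. Thinned to 1000 UMIs, the median barcode held 1 Creb3l3 UMI in shBicd2 members (lowest 0, highest 6) and 0 in 0-UMI barcodes (0 to 5). The barcode ranges overlapped. Of the 31 genes on the list of PPARα targets and fatty acid oxidation, 21 reached 30 UMIs in the shBicd2-labelled library; 16 were higher and 0 lower, or 13 and 1 after division by the median of all genes. The median of the list lay 0.87 above that of all genes on the log2 scale, and 0.85 above it without EGFP barcodes. List genes not tested, such as Cyp4a10, Cyp4a14, Ehhadh and Fgf21, held few UMIs or none.

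Other genes of this list, named here after their values were seen, cover most steps of the pathway. Slc27a2, which brings in and activates very long chain fatty acids, belongs to the uptake list and stood at 386 against 84.6 CPM (4.56-fold). It had the highest ratio of the 9 uptake genes tested, of which 4 were higher and 0 lower, or 3 and 1 after division by the median. The uptake list median lay 0.03 above that of all genes. Cpt1a, the gate of mitochondrial import, stood at 145 against 35.3 CPM (4.10-fold), and Cpt2, the next step, at 45.6 against 12.3 CPM (3.70-fold). Within the mitochondrion, Acadvl (2.11-fold), Hadha (2.63-fold), Hadhb (2.47-fold), Decr1 (4.28-fold) and Etfdh (4.27-fold) were higher. Bdh1, an enzyme of ketone body metabolism, stood at 35.8 against 3.29 CPM (10.9-fold, 3.97 to 41.8). Angptl4, a secreted inhibitor of lipoprotein lipase and a PPARα target, was 1.66-fold higher, and Ppara itself stood at 106 against 94.5 CPM (1.12-fold, 0.865 to 1.45). Acadm, the medium chain dehydrogenase, stood at 71.7 against 89.5 CPM (0.801-fold). RefSeq promoters of 21 of the 31 genes were in the table, and 2 of 24 windows (8.33%) held the DR1 letters, against 3.86% of all 32851 windows. The letters were in 1 of 23 windows of the droplet list (4.35%), 0 of 17 of the sterol synthesis list and 0 of 36 of the hypoxia and glycolysis list.

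Droplet genes outside the rule did not move as 1 group. Of 19 listed, 13 were tested in the shBicd2-labelled library; 8 were higher and 1 lower, or 4 and 3 after division by the median of all genes. The list median lay 0.33 above that of all genes, and at -0.03 relative to it without EGFP barcodes. Their summed level was 995 CPM in members and 1011 CPM in paired barcodes. Plin4, a perilipin of small droplets, stood at 169 against 50.9 CPM (3.31-fold, 2.48 to 4.47). Plin5, the perilipin that ties droplets to mitochondria, was 3.87-fold higher (31.8 against 8.21 CPM), and Cideb, a droplet and lipoprotein lipidation factor, 3.15-fold higher (57.0 against 18.1 CPM). Hsd17b13, a droplet-bound dehydrogenase of hepatocytes, was lower at 79.8 against 370 CPM (0.216-fold, 0.172 to 0.269). Plin3 stood at 89.6 against 128 CPM (0.699-fold) and Hilpda, an inhibitor of Pnpla2, at 118 against 144 CPM (0.822-fold). Some droplet genes thus went with Plin2, which the label implies, and the droplet genes as a set did not.

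Enzymes of triglyceride synthesis did not move as 1 group either. Dgat1 and Dgat2 catalyse the same last step: Dgat1 stood at 118 against 58.3 CPM in shBicd2 members and paired barcodes (2.03-fold, 1.51 to 2.73) and Dgat2 at 222 against 785 CPM (0.283-fold, 0.247 to 0.324). Lpin2, a phosphatidate phosphatase one step earlier, stood at 590 against 1607 CPM (0.368-fold), and at 4 against 30 UMIs in the scramble-labelled library. Lpin1, its paralog, stood at 325 against 297 CPM (1.10-fold). Agpat3 (2.59-fold) and Acsl5 (3.17-fold) were higher. Over the list, 13 of 17 genes were tested, 7 were higher and 2 lower, or 4 and 4 after division by the median.

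Of 13 lipases and their regulators, 7 were tested, 4 higher and 1 lower, or 1 and 1 after division by the median. Pnpla2, the triglyceride lipase that G0s2 inhibits, stood at 58.6 against 47.6 CPM (1.23-fold, 0.859 to 1.77). Lipe, the hormone-sensitive lipase, was 2.78-fold higher on 22.8 against 8.21 CPM, and Lipc, a secreted hepatic lipase, was lower at 49.7 against 158 CPM (0.315-fold). Hnf4a, on this list although it encodes a transcription factor and no lipase, stood at 175 against 103 CPM (1.69-fold).

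New fatty acid synthesis was mixed and sterol synthesis was higher. Scd1, the desaturase that makes oleate, stood at 134 against 592 CPM (0.227-fold, 0.190 to 0.269), and Elovl5, an elongase, was 0.388-fold. Fads2 (4.79-fold) and Fads1 (2.82-fold), which desaturate polyunsaturated fatty acids, and Slc25a1, the citrate carrier (2.50-fold), were higher. Mlxipl, the carbohydrate-sensing factor ChREBP, stood at 1224 against 1697 CPM (0.721-fold). Of 15 fatty acid synthesis genes, all tested, 5 were higher and 4 lower, or 3 and 7 after division by the median.

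Of 21 sterol synthesis genes, all tested in the shBicd2-labelled library, 17 were higher in members and 1 lower, or 15 and 1 after division by the median. The list median lay 0.96 above that of all genes and 0.67 above it without EGFP barcodes. Hmgcs1, which makes the precursor of mevalonate (chromosome 13, 119690379 to 119708260, plus strand), stood at 583 against 195 CPM (3.00-fold, 2.58 to 3.48). Msmo1, a sterol demethylation enzyme, stood at 631 against 224 CPM (2.81-fold), and Fdps, the farnesyl diphosphate synthase, at 475 against 164 CPM (2.89-fold). Insig1, which holds back the sterol-sensing factor SREBP, stood at 366 against 248 CPM (1.48-fold), and Stard4, a sterol carrier, was the 1 lower gene at 75.7 against 122 CPM (0.623-fold). Promoters of 14 of the 21 genes were in the table; the element TCACNCCAC shown above for Hmgcs1 was in 1 of 17 windows (5.88%), and in 2 of 24 windows (8.33%) of the PPARα and fatty acid oxidation list.

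In the scramble-labelled library the sterol genes summed to 1303 CPM in members (55 UMIs) and 1161 CPM in their pairs. The shBicd2 members stood at 4667 CPM (5731 UMIs), 3.58 times the scramble members (2.75 to 4.76), and their pairs at 2122 CPM, 1.83 times the scramble pairs (1.38 to 2.48). The plot of sterol genes by library shows this for 20 of the 21 genes. The 29 reported genes of the PPARα and fatty acid oxidation list stood at 2511 CPM in scramble and 2993 CPM in shBicd2 members, a ratio of 1.19 (0.983 to 1.46), and at 1350 and 1175 CPM in the pairs (0.871, 0.668 to 1.16). Genes of the type I interferon response stood lower in shBicd2 than in scramble members, at 862 against 2345 CPM (0.368-fold, 0.299 to 0.457), with 0.843 (0.672 to 1.07) in the pairs. Genes of endoplasmic reticulum stress stood 1.62-fold higher in shBicd2 members (1.40 to 1.88) and at 0.791 in the pairs (0.689 to 0.912). Mitochondrially encoded genes stood 2.18-fold higher in members and 2.07-fold in pairs.

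**Figure D3:**
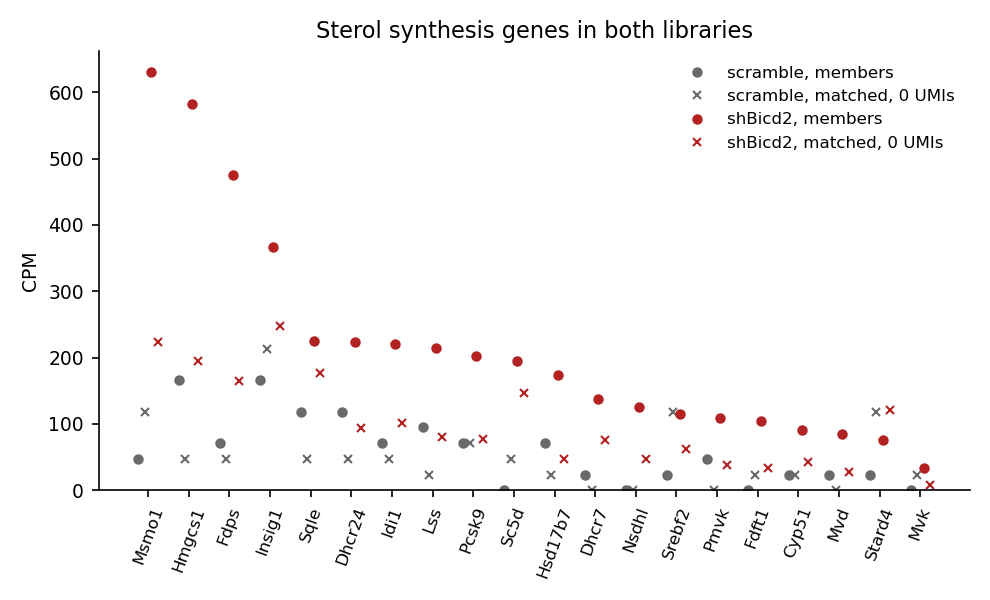
CPM (vertical axis) of 20 sterol synthesis genes (horizontal axis, ordered by level in shBicd2 members) in members (circles) and depth-matched barcodes with 0 Plin2 plus G0s2 UMIs (crosses) of the scramble-labelled library (grey, 16 and 16 barcodes) and the shBicd2-labelled library (red, 495 and 495 barcodes). Hmgcs1 stands at 583 CPM in shBicd2 members; grey points move in steps of 23.7 CPM, the worth of 1 UMI.

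Most of the highest ratios by the naming rule in the shBicd2-labelled library belonged to genes outside the lipid lists. Hykk, a hydroxylysine kinase, led at 75.7 against 5.75 CPM (13.2-fold, 6.15 to 33.7), and Slc25a30, a mitochondrial carrier, followed at 275 against 23.8 CPM (11.6-fold, 7.90 to 17.5). Inhbe, a liver-secreted inhibin subunit, was 10.6-fold higher, Aldh9a1, an aldehyde dehydrogenase of carnitine synthesis, 9.49-fold, and Slc17a9, a nucleotide transporter, 8.29-fold. Upb1 (6.76-fold), Rsad1 (6.75-fold) and Cpox of heme synthesis (6.40-fold) were also in this group. Meg3, a long noncoding RNA of the imprinted Dlk1-Dio3 locus, stood at 1075 against 150 CPM (7.15-fold), but only 63 members and 43 paired barcodes carried it. Against barcodes with 1 or 2 Plin2 plus G0s2 UMIs the ratios were smaller, at 2.95 for Hykk, 4.68 for Slc25a30 and 2.60 for Meg3. Slc25a30, Inhbe, Aldh9a1 and Upb1 were at 0 UMIs on both sides in the scramble-labelled library, so no ratio exists there.

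Genes higher in members of both libraries were ranked by the smaller of their 2 ratios. Nnmt, the nicotinamide methyltransferase, stood at 310 against 92.0 CPM in the shBicd2-labelled library (3.37-fold) and at 28 against 2 UMIs in the scramble-labelled library (ratio 14.0, 3.53 to 121). Prpf4b, a splicing kinase, was 2.69-fold and 3.57-fold higher, Etnk2, an ethanolamine kinase of phospholipid synthesis, 4.07-fold and 2.28-fold, and Nudt7, a peroxisomal coenzyme A hydrolase, 3.67-fold and 2.05-fold. Fkbp5, a glucocorticoid-induced cochaperone, was 2.11-fold and 2.24-fold higher. Snhg1, Ell2, Ddx17 and Nlrp12 were also higher, with ratios from 2.05 to 4.15 in the shBicd2-labelled library and from 2.09 to 2.33 in the scramble-labelled library. Some of the scramble intervals reach down to near 1, such as 0.979 to 4.75 for Nlrp12.

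**Figure D4:**
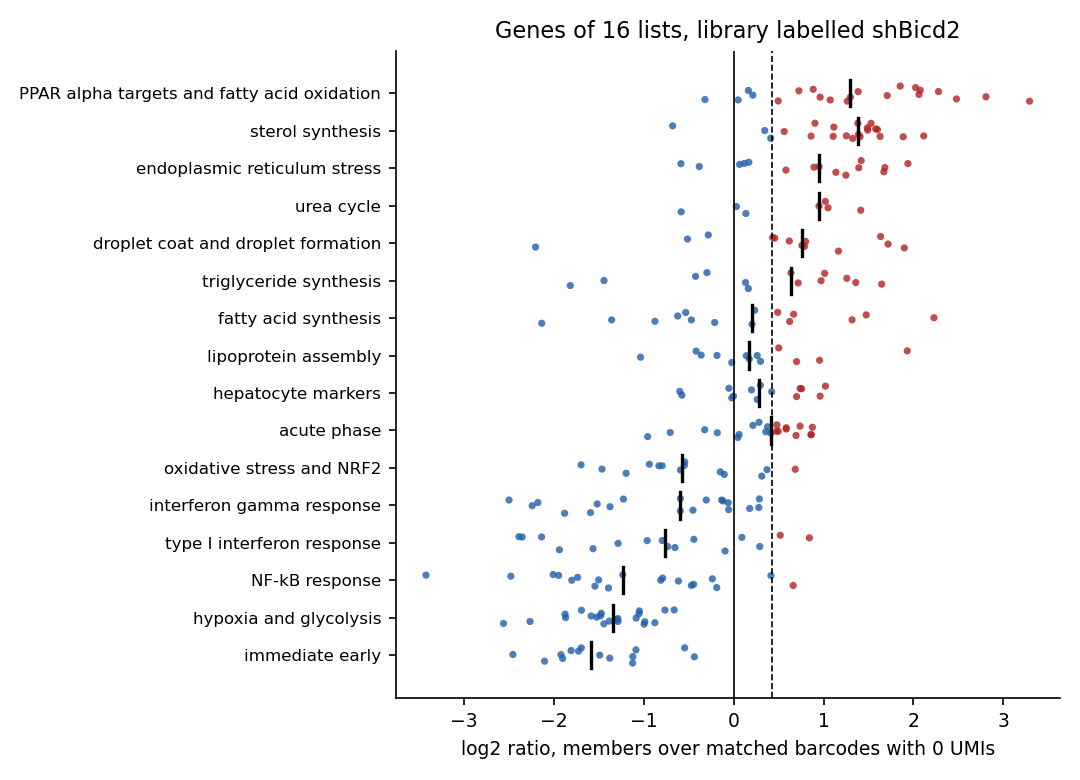
Log2 ratio of members over depth-matched barcodes with 0 Plin2 plus G0s2 UMIs (horizontal axis) for each tested gene (points) of 16 lists (vertical axis), library labelled shBicd2; black bars are list medians, the solid line is 0, the dashed line is the median of all genes (0.43), and points are red above and blue below that line. All 22 tested hypoxia and glycolysis genes lie left of 0, and 20 of 21 sterol synthesis genes lie right of it.

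Genes of hypoxia and glycolysis were lower in members throughout the list. In the shBicd2-labelled library, 22 of 25 were tested, and 0 were higher and 22 lower with and without division by the median, with a list median 1.77 below that of all genes. Vegfa, the endothelial growth factor, stood at 965 against 2522 CPM (0.383-fold, 0.358 to 0.409), and at 39 against 95 UMIs in the scramble-labelled library. Pfkfb3, which drives glycolytic flux, stood at 464 against 1265 CPM (0.367-fold), Bnip3, a mitophagy receptor, at 137 against 503 CPM (0.272-fold) and Adm, the vasoactive adrenomedullin, at 105 against 623 CPM (0.169-fold). The glycolytic enzymes Gapdh (0.503-fold) and Ldha (0.632-fold) were lower too. The median stayed 1.85 below that of all genes without EGFP barcodes. The letters ACGTG, the core of the hypoxia response element, were in 21 of 36 promoter windows of this list (58.3%), against 19.6% of all windows of that length, from 24 of the 25 genes, and are not in capitals above.

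Immediate early genes, which are induced within minutes of stress, were also lower. Of 14 tested in the shBicd2-labelled library, 0 were higher and 12 lower, or 0 and 14 after division by the median. Junb stood at 1280 against 4150 CPM (0.308-fold), Jun at 491 against 2115 CPM (0.232-fold), Jund at 709 against 2656 CPM (0.267-fold) and Atf3 at 155 against 852 CPM (0.182-fold). Of 6 tested in the scramble-labelled library, 5 were lower and 0 higher; Jun held 11 UMIs in members and 30 in their pairs (0.367-fold, 0.166 to 0.753). The list median lay 2.02 below that of all genes in the shBicd2-labelled library and 1.40 below without EGFP barcodes.

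Many inflammatory genes were lower in members, chemokines among them. Cxcl2, a neutrophil attractant, stood at 323 against 1807 CPM (0.179-fold, 0.160 to 0.199) in the shBicd2-labelled library and at 2 against 51 UMIs in the scramble-labelled library (0.0392-fold, 0.00462 to 0.149), where 64.7% of the UMIs of the higher side were in 1 barcode and the ratio ranged from 0.0391 to 0.648 over the settings tried. Cxcl10, a T cell attractant induced by interferon, stood at 467 against 2644 CPM (0.177-fold) and at 52 against 138 UMIs (0.377-fold). That scramble ratio was 1.75 (1.08 to 2.89) when barcodes with a UMI of any of 13 lineage genes were left out. Irf1, the transcription factor that carries the interferon gamma response, stood at 411 against 1948 CPM (0.211-fold) and 18 against 51 UMIs. Vcam1, a leukocyte adhesion molecule, had the lowest ratio by the naming rule at 11.4 against 126 CPM (0.0901-fold). Iigp1, an interferon-induced GTPase, did not follow: it stood at 4216 against 4384 CPM (0.962-fold, 0.925 to 0.999), and at 193 against 169 UMIs in the scramble-labelled library.

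By list, 13 of 19 NF-kB response genes were lower and 1 higher in the shBicd2-labelled library, all 19 tested, or 17 and 0 after division by the median. The 1 higher gene was Lcn2, a secreted siderophore binder (2578 against 1629 CPM, 1.58-fold). In the scramble-labelled library 6 NF-kB response genes were tested, 1 higher and 2 lower. Of interferon gamma response genes, 19 were tested, 10 lower and 0 higher (12 and 0 after division), and 6 of 8 were lower in the scramble-labelled library with 0 higher; the scramble list median less that of all genes was -0.93 on the log2 scale and ranged from -1.14 to 0.38 over the settings tried, the latter without the barcodes of 13 lineage genes. Type I interferon genes were lower in 10 of 16 and higher in 1 in the shBicd2-labelled library, or 11 and 0 after division. In the scramble-labelled library 0 of 21 were tested, and their sum was higher in members, at 2345 against 1847 CPM. Acute phase genes stood apart from these groups in the shBicd2-labelled library. There, 6 of 21 were higher and 2 lower, 0 and 4 after division, and the list median lay 0.01 below that of all genes. Saa1, a serum amyloid, stood at 10806 against 9315 CPM (1.16-fold), Fgg, a fibrinogen chain, at 8147 against 4439 CPM (1.84-fold), and Crp, the C-reactive protein, at 245 against 476 CPM (0.515-fold).

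The remaining genes of low ratio by the naming rule included 4 histone genes, Wee1, Foxq1 and Sgms2. Hist1h4c stood at 54.6 against 402 CPM (0.136-fold, 0.104 to 0.176), and Hist1h4b, Hist1h4n and Hist1h2ap were between 0.102-fold and 0.131-fold. The Hist1h4 genes among them are near-identical in sequence, so the split of reads between those is uncertain. Wee1, a brake on mitosis, was 0.131-fold, Foxq1, a forkhead factor, 0.112-fold, and Sgms2, a sphingomyelin synthase, 0.139-fold. Genes lower in both libraries included Rhob, Bsg, Pnrc1, Depp1, Dusp1 and Bhlhe40, with ratios from 0.197 to 0.361 in the shBicd2-labelled library and from 0.186 to 0.345 in the scramble-labelled library. Efna1 was 0.329-fold in the scramble-labelled library and 0.386-fold in the shBicd2-labelled library. Nfib, at 7 against 25 UMIs in the scramble-labelled library, stood at 203 against 196 CPM in the other (1.03-fold).

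Chaperones of the endoplasmic reticulum were higher and those of the heat shock response lower. Hspa5, the main chaperone of the reticulum, stood at 1521 against 818 CPM in the shBicd2-labelled library (1.86-fold) and Hsp90b1 at 1711 against 720 CPM (2.38-fold). Pdia4, a disulfide isomerase, was 3.87-fold higher, while Herpud1 stood at 714 against 683 CPM (1.05-fold) and Dnajb9 at 105 against 137 CPM (0.766-fold). Of 15 tested, 9 were higher and 1 lower, or 7 and 2 after division. Hspa5 held 41 UMIs in scramble members and 52 in their pairs. The heat shock genes Hspa1b (0.341-fold) and Hsp90aa1 (0.435-fold) were lower, with 6 of 14 lower and 3 higher, or 8 and 0 after division.

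Liver metabolism outside lipid also differed. Tat, a tyrosine aminotransferase induced by glucocorticoids, stood at 6372 against 3450 CPM in the shBicd2-labelled library (1.85-fold) and at 160 against 151 UMIs in the scramble-labelled library. The list of glucocorticoid and fasting response genes did not rise with it. Of 16 tested in the shBicd2-labelled library, 3 were higher and 7 lower, or 2 and 9 after division, and the list median lay 0.71 below that of all genes. Of 7 tested in the scramble-labelled library, 3 were higher and 3 lower. Igfbp1, an insulin-suppressed secreted protein, was lower at 1731 against 5533 CPM (0.313-fold). Ppargc1a, a coactivator of PPARα, was 4.36-fold higher on 53.8 against 12.3 CPM. The urea cycle genes Cps1 (2.03-fold), Asl (2.07-fold) and Arg1 (1.93-fold) were higher, while Ass1 stood at 283 against 277 CPM (1.02-fold); 4 of 7 were higher and 1 lower, or 3 and 1 after division, and the list median lay 0.52 above that of all genes, and 0.02 above it without EGFP barcodes. Pck1, the rate-limiting enzyme of gluconeogenesis, stood at 127 against 54 UMIs in the scramble-labelled library (2.35-fold), while it stood at 1301 against 969 CPM in the other (1.34-fold). Socs2, a brake on growth hormone signalling, and Chd9, a chromatin remodeller, were 3.44-fold and 2.22-fold higher in the scramble-labelled library and stood at 1.34-fold and 1.39-fold in the shBicd2-labelled library.

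Of 14 genes on the list of ductal and injury keratins, which holds other injury genes too, 6 were tested in the shBicd2-labelled library, and 5 were lower and 0 higher. Krt8 stood at 629 against 1453 CPM (0.433-fold) and Krt18 at 789 against 1371 CPM (0.576-fold) in the shBicd2-labelled library. Sox9, a ductal and injury factor, stood at 28.5 against 59.1 CPM (0.482-fold), but at 1.05-fold without EGFP barcodes. Mt1, a metal-binding stress protein, stood at 6280 against 12038 CPM (0.522-fold). Periportal and pericentral genes, which mark the ends of the liver lobule, did not separate members from their pairs: 6 of 14 periportal genes were higher and 2 lower (2 and 4 after division), and 7 of 13 pericentral genes were higher and 2 lower (5 and 3 after division). Under the label scramble, 3 of 5 periportal genes were higher and 0 lower, and Pck1 and Sds were among those 3, chosen for naming after their values were seen. The genes of the dynein motor and its adaptors, to which Bicd2 belongs, had a list median equal to that of all genes (0.00), with 10 of 22 higher and 1 lower, or 5 and 3 after division. Bicd2 itself stood at 21.2 against 21.4 CPM (0.992-fold, 0.553 to 1.78), 26 UMIs on each side.

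Several values changed with the number of Plin2 plus G0s2 UMIs, some already below the threshold and some mainly at it. Classes used the raw UMIs of both genes. Over all barcodes inside the limits of the shBicd2-labelled library, median depth rose from 1272 UMIs at 0 to 2856 at 6 or more. Thinning evens the counts but does not match this original depth. In the shBicd2-labelled library, with every barcode thinned to 1000 UMIs outside both genes, 921, 454, 227, 143, 158 and 158 barcodes held 0, 1, 2, 3, 4 to 5 and 6 or more such UMIs. Creb3l3 stood at 299, 443, 841, 1028, 1354 and 1348 CPM in that order, Slc25a30 at 31.5, 50.7, 159, 210, 241 and 380 CPM, and Angptl4 at 177, 198, 242, 252, 291 and 329 CPM. Sterol synthesis genes summed to 2261 CPM at 0 UMIs and 4905 CPM at 6 or more. Cxcl10 stood at 2138, 1663, 1511, 462, 399 and 177 CPM, Vegfa at 2299 CPM at 0 and 785 CPM at 6 or more, and Dgat2 at 659 and 127 CPM. The droplet list without Plin2 and G0s2 stayed between 896 and 1146 CPM over the 6 classes. Heat shock genes summed to 2707, 2522, 3066, 2154, 1380 and 1044 CPM, without a steady order up to 2 UMIs. EGFP moved with the classes as well, from 1116 and 1137 CPM at 0 and 1 to 401 CPM at 2 and 63 CPM at 6 or more.

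**Figure D5:**
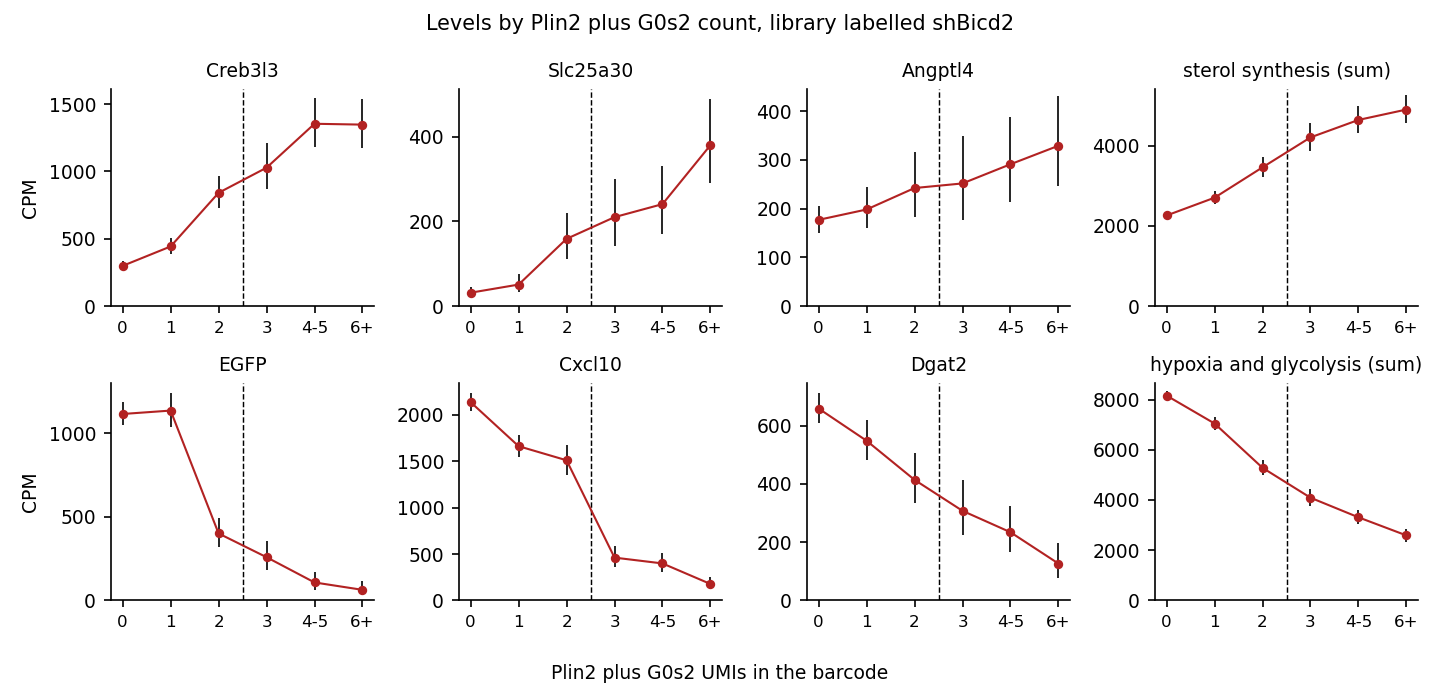
CPM (vertical axes, from 0) of 6 genes and 2 list sums by the number of Plin2 plus G0s2 UMIs in the barcode (horizontal axes), library labelled shBicd2, each barcode thinned to 1000 UMIs outside both genes; error bars are exact Poisson 95% intervals and the dashed line marks the threshold of 3. Creb3l3 goes from 299 to 1348 CPM, while Cxcl10 goes from 1511 CPM at 2 UMIs to 462 CPM at 3.

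In the scramble-labelled library, 1656, 219, 40 and 16 thinned barcodes held 0, 1, 2 and 3 or more such UMIs. The 29 reported genes of the PPARα and fatty acid oxidation list summed to 1188, 1073, 1275 and 2313 CPM over them, the last from 37 UMIs (1628 to 3187 CPM). The same genes stood at 1298 CPM at 0 and 3135 CPM at 3 or more in the shBicd2-labelled library. Hypoxia and glycolysis genes stood at 5327, 5183, 4875 and 2625 CPM. Sterol synthesis genes stood at 1184, 1192, 1350 and 1188 CPM, without the increase seen in the shBicd2-labelled library; this difference between the libraries was not tested. Immediate early genes stood at 8927, 8959, 7950 and 5375 CPM. At 1 UMI the scramble values of the lists named in this paragraph lay close to those at 0. Other lists lay further off in either direction. Mitochondrially encoded genes stood at 8301 CPM at 1 UMI and 6575 CPM at 0, and NF-kB response genes at 7201 and 8161 CPM. The part of free RNA in these barcodes was not tested.

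Members of the shBicd2-labelled library were not uniform. The 94 that carried an EGFP UMI were set against other members at matched depth (92 pairs), where 356 of 3454 genes were higher (10.3%) and 502 lower (14.5%). Heat shock genes were higher in 9 of 11, with a median of 2.04 on the log2 scale, immediate early genes in 11 of 14 (1.25) and NF-kB response genes in 8 of 17, with 0 lower in each of these lists. Myc, a growth-promoting transcription factor, held 30 against 4 UMIs (7.38-fold, 2.60 to 28.8), Scd1 76 against 18 (4.15-fold) and Adm 67 against 16 (4.12-fold). Meg3 was lower at 188 against 442 UMIs (0.418-fold).

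The 135 members with a G0s2 UMI were compared in the same way with those without (134 pairs). Of 3885 genes, 292 were higher (7.52%) and 334 lower (8.6%). All 10 tested mitochondrially encoded genes were lower, with a median of -0.84 on the log2 scale, while 4 of 17 genes of the PPARα list were higher and 0 lower. Tmtc2, a mannosyltransferase, at 32 against 8 UMIs (3.99-fold, 1.80 to 10.0), Zfp426 (3.99-fold) and Fam91a1 (3.07-fold) were higher, and Ifih1, a sensor of viral RNA, at 6 against 25 UMIs (0.240-fold), Ptges3 and Apol9b were lower by the naming rule. These 3 genes on each side were the only ones that met the naming rule in this comparison.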

How the data were processed

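The deposited values are raw UMI counts per gene and barcode, in 1 matrix per library of 32287 features, with no normalization by the authors. Per the labels' protocols, the 10x Genomics 3′ chemistry was version 3.1. Cell Ranger 6.1.2 is written per the file headers; Cell Ranger 6.0.1, Seurat 4.0.3 and the build mm10 are listed per the submitters' processing notes. The lowest barcode held 500 UMIs and the medians were 1505 and 1499. Dissociation, doublet removal and the counting of introns are not given in the sources used here; no doublets were removed in the values reported.

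Groups were taken from the sample labels. Members and gene lists (39 lists) were chosen with earlier results of these data known. UMIs were summed over members and over depth-matched barcodes with 0 Plin2 plus G0s2 UMIs, paired 1:1 from the deepest down, and divided by the UMIs outside both genes to give CPM. Ratios have exact conditional binomial intervals, levels exact Poisson intervals and shares exact binomial (Clopper-Pearson) intervals. UMIs of 1 barcode are not independent, and intervals cover counting error only. Log2 values had 0.5 UMI added, and 0 UMIs allow up to 3. Genes with at least 30 UMIs over both sides were called past 1.5-fold; list medians are given less that of all genes tested. For the gradient, classes of 3 and of 4 to 5 UMIs were shown separately instead of joined as first planned.

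Named genes are Bicd2, EGFP, Plin2 and G0s2, then per library the 10 highest and 10 lowest ratios with at least 50 CPM on the higher side, an interval bound beyond 1.5-fold and at most 20% of UMIs in 1 barcode; up to 10 genes each way past 1.5-fold in both libraries; and up to 4 genes of each list with the most UMIs. Mitochondrial, ribosomal, hemoglobin, immunoglobulin, T cell receptor and clone-named genes were left out of the ranking. Genes outside this rule, mostly further members of the lists, were chosen after their values were seen. Some genes that met the rule are not reported here. Coordinates of genes are from GENCODE vM21 on GRCm38, the assembly that mm10 names, and promoters from RefSeq.

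The ratio step was tested on simulated counts. Python 3.11.15, numpy 2.4.6, scipy 1.17.1, pandas 2.3.3, matplotlib 3.10.9 and scanpy 1.11.5 (for Scrublet) were used, with fixed seeds for thinning. The alternatives changed the threshold, both genes or Plin2 alone, the limits on barcodes, doublets, EGFP barcodes, the matching, the scaling and the lowest number of UMIs.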

Additional observations from a re-analysis of the deposited data

Results flagged for a closer look

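Glul, the glutamine synthetase of pericentral hepatocytes, had ratios on opposite sides of 1 in the 2 libraries as reported. Under the label scramble it stood at 55 UMIs in the 16 members and 6 in their pairs, a ratio of 9.17 (3.95 to 26.1), and 27.3% of the member UMIs were in 1 barcode. The shBicd2 members stood at 110 CPM and their pairs at 170 CPM, a ratio of 0.647 (0.517 to 0.807), which was 1.01 (0.716 to 1.42) after thinning to 1000 UMIs, so its direction did not hold there. Trf, the transferrin gene, stood at 30 against 53 UMIs in the scramble-labelled library, a ratio of 0.566 (0.349 to 0.902), and at 3319 against 2893 CPM among shBicd2 barcodes, a ratio of 1.15 (1.10 to 1.20), which was 0.955 (0.906 to 1.01) without EGFP barcodes and 0.854 after division by the median of all genes. Each interval as reported lies on its own side of 1 and covers counting error only. The difference between the libraries was not tested, since each ratio comes from 1 library.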

How the results depend on the processing

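The shares of members (0.615% under the label scramble, 17.5% under shBicd2, ratio 28.5) moved with the threshold by construction: to 2.23 and 27.6% (ratio 12.4) at 2 UMIs, and to 0.0769 and 7.36% (ratio 95.8, 26.2 to 796) at 5. Thinned to 1000 UMIs they were 0.104 and 9.17% (ratio 88.5). The shBicd2 share was 20.8% with at least 500 genes and 19.8% without EGFP barcodes.

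Counts of genes past 1.5-fold in the shBicd2-labelled library (3258 higher, 1019 lower) became 1579 and 1800 after division by the median of all genes, and 1445 and 618 with at least 100 UMIs, where 3923 genes were tested. The higher genes numbered 2008 without EGFP barcodes and 2066 after thinning. In the scramble-labelled library (70 higher, 74 lower of 378) the counts moved with the number of genes tested: 226 and 208 at 2 UMIs, 11 and 12 at 5, 155 and 170 with 3 paired barcodes per member, 1822 and 2833 after thinning and 2514 and 3324 without matching, where all 0-UMI barcodes were used, 390 and 392 with at least 10 UMIs, and 14 and 16 with at least 100. With the wider lineage exclusion (13 genes), 49 were lower.

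Over all lists and settings, 526 list medians were set against those reported for the shBicd2-labelled library, and 18 moved beyond the interval of the reported median. That interval reflects the spread between the genes of a list and not counting error. Lists near the median of all genes changed sign: without EGFP barcodes droplet genes went from 0.33 to -0.03 and pericentral genes from 0.25 to -0.13. Among named genes 7 values reversed: in the scramble-labelled library Lpin1 (1.01), Lcn2 (0.942) and Kif5b (0.831) at 2 UMIs, and Cxcl10 (1.75) and Cxcl9 (1.65) with the wider lineage exclusion; in the shBicd2-labelled library Sox9 (1.05) without EGFP barcodes and Glul (1.01) after thinning. The cause was not tested. Comparison with barcodes of 1 or 2 Plin2 plus G0s2 UMIs, and leaving out barcodes with Meg3, Rian or Mirg, were chosen after seeing the data. Against the former Creb3l3 was 2.60-fold higher, and its ratio in the shBicd2-labelled library ranged from 2.60 to 6.12 over the settings. Leaving out the 62 and 73 barcodes with the highest Scrublet doublet scores took out 0 of 16 and 12 of 497 members. Those numbers were set beforehand from the barcode counts and are not a detected doublet rate. No paired analysis was possible because each group has 1 library. Depth limits the scramble side, where 16 members held 42222 UMIs outside both genes.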

Other observations

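Meg3, Rian and Mirg, noncoding RNAs of the imprinted Dlk1-Dio3 locus, were carried by few shBicd2 barcodes, each with many UMIs. A UMI of any of them was seen in 15.8% of paired members and 12.5% of paired 0-UMI barcodes (78 and 62 of 495), while Meg3 stood at 1075 against 150 CPM and Rian at 268 against 50.9 CPM. Over the classes of 0, 1, 2, 3, 4 to 5 and 6 or more Plin2 plus G0s2 UMIs, Meg3 stood at 203, 339, 855, 308, 1608 and 937 CPM, with no steady order. Scramble members held 1 Meg3 UMI and 2 Rian UMIs. The 80 shBicd2 members with a UMI of these genes, set against other members at matched depth (78 pairs), had more of Slc1a2, a glutamate transporter of pericentral hepatocytes (25 against 7 UMIs, 3.57-fold), Glul (52 against 20 UMIs, 2.60-fold) and Thrsp, a lipogenic factor (42 against 15 UMIs, 2.80-fold), and less of Serpina1e (158 against 294 UMIs, 0.537-fold). These genes were chosen by the naming rule in that comparison.

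Neat1, a nuclear RNA induced by stress, was lower in shBicd2 members (0.551-fold), and Malat1, another nuclear RNA, stood at 1.43-fold. By number of Plin2 plus G0s2 UMIs, Neat1 went from 61393 CPM at 0 to 28089 CPM at 6 or more.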
